A study of Saccharomyces cerevisiae with 12 samples.

Results

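The genes described here encode the subunits of the yeast proteasome. They were chosen as every feature of the count table whose systematic identifier maps to a standard gene name RPN or RPT followed by a number, PRE1 to PRE10, PUP1 to PUP3 or SCL1, with RPN4, the transcription factor of these genes, set apart. The rule found 33 of the 7192 features, 14 for the core particle, 18 for the regulatory particle and RPN14, which carries a subunit name but encodes an assembly chaperone. RNA was sequenced from 6 lectin and 6 control samples of wild-type Saccharomyces cerevisiae grown in the rich glucose medium YPD to the middle of exponential growth. The lectin samples had been incubated with Cyclina sinensis lectin, a clam protein that binds sugars, at a dose and for a time the labels do not give, and the control samples were untreated. Samples are named by group and by the number in their titles, lectin 2, 3, 4, 5, 6 and 8 and control 2, 3, 4, 6, 7 and 8. The series' design text calls them biological replicates without naming separate cultures, so p-values measure only the spread between these samples, part of which may be technical.

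The proteasome degrades proteins that carry ubiquitin. Its core is a barrel of stacked rings, with alpha rings that gate the ends and beta rings that hold the peptide-cutting sites. The regulatory particle caps the barrel: its base holds a ring of ATPases that unfold the substrate, and its lid removes the ubiquitin. In yeast the factor Rpn4 switches most of these genes on through a promoter sequence, the proteasome-associated control element, and Rpn4 is itself a short-lived substrate of the proteasome, so the genes are known for moving together when degradation falls behind.

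The promoters were read first, because they are what most of these genes share. The element was searched as GGTGGCAAA on both strands, from 250 bases before to 50 bases after each gene's start in the R64 reference, the build that the submitters' processing notes also name. An exact match was in the windows of 27 of the 33 genes (81.8%), against 72 of 6001 nuclear protein-coding genes (1.2%). It was in 12 of the 14 core promoters and 15 of the 18 regulatory promoters. Each of the 27 windows held 1 match, on the gene's own strand in 19 and on the opposite strand in 8, and 75 to 174 bases (median 111) lay between the match and the start of the gene. The windows of PRE5, PUP1, RPN8, RPN10 and RPN13 held a match with 1 substitution instead, and that of RPN14 held neither. A window with no match says only that these letters are absent from it.

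Sequences are shown for the called genes whose windows hold the element and for the 5 with a substituted one, with RPT4 and RPN9 beside them as genes whose levels hardly differed between the groups. Each runs 5′ to 3′ on the strand of the gene, with the element in capitals. Substitutions are counted from 1 at the element's first G.
PUP2: aaccaagaccGGTGGCAAAagagtaaccta
PRE10: cctctaaatcGGTGGCAAAaataagaaagt
RPN2: atttattttcGGTGGCAAAactggatacat
RPT4: aatagtggaaTTTGCCACCgaagggaaagg
RPN9: gctttcatccGGTGGCAAAagtaagaacaa
PUP1: aacccggccgAGTGGCAAAataccaaaaag
RPN13: ttattcgcgaGGTGGCGAAagctttgctac
PRE5: cctattatagAGTGGCAAAattaaaaattc
RPN8: gggatacctcAGTGGCAAAtcgttactcaa
RPN10: caggcgggttTTCGCCACCggaatttacaa

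The stretch of PUP2 lies at chrVII:999225-999254 on the minus strand, that of PRE10 at chrXV:1018855-1018884 (minus), and that of RPN2 at chrIX:220800-220829 (minus). RPT4 is shown at chrXV:813801-813830 (minus) and RPN9 at chrIV:1322086-1322115 (plus). PUP1 is shown at chrXV:631890-631919 (minus), RPN13 at chrXII:965655-965684 (minus), PRE5 at chrXIII:901552-901581 (plus), RPN8 at chrXV:817084-817113 (minus) and RPN10 at chrVIII:498968-498997 (plus). The substitution was G1A in PUP1, PRE5 and RPN8, and A7G in RPN13 and RPN10, read along the element. In RPT4 and RPN10 the element is on the opposite strand and appears reversed and complemented. All these stretches lie upstream of the coding sequence of their gene.

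The libraries held 17303313 to 21354011 counts in the lectin group and 17380109 to 19753992 in the control group. Values below are normalized counts, the counts divided by the library's size factor. All 33 genes were well measured: the smallest raw count was 412, in RPN14, and the largest 15412. Gene names, lengths and R64 coordinates came from RefSeq. No member overlaps another gene annotated there, the coding sequence of PRE3 has 2 exons and that of each other member 1, and features of the table that RefSeq does not list were not placed on the genome. Lectin 5 stood apart from the other lectin samples in several of these genes, and the values without it are given for the genes and counts described below that it moved most.

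Most proteasome genes differed little between the groups. Of the 33, 5 were higher and 1 lower with lectin at an adjusted p under 0.05 (DESeq2), and 27 did not pass. That is 18.2% of them, where 31.5% of all 6237 tested genes passed, 15.4% higher and 16.1% lower. The median log2 fold change, lectin over control, was 0.02 over the 33 genes and 0.0017 over all tested genes. No member reached an absolute log2 fold change of 1, as 0.257% of all tested genes did while passing the test, and the largest value among them was 0.20, in PUP1. edgeR called 3 higher and 1 lower, where it called 29.1% of all genes. In 2 of the 33 genes, RPN13 and RPN14, lectin and control samples shared no part of their range, where this held for 12.6% of all genes.

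**Figure D1:**
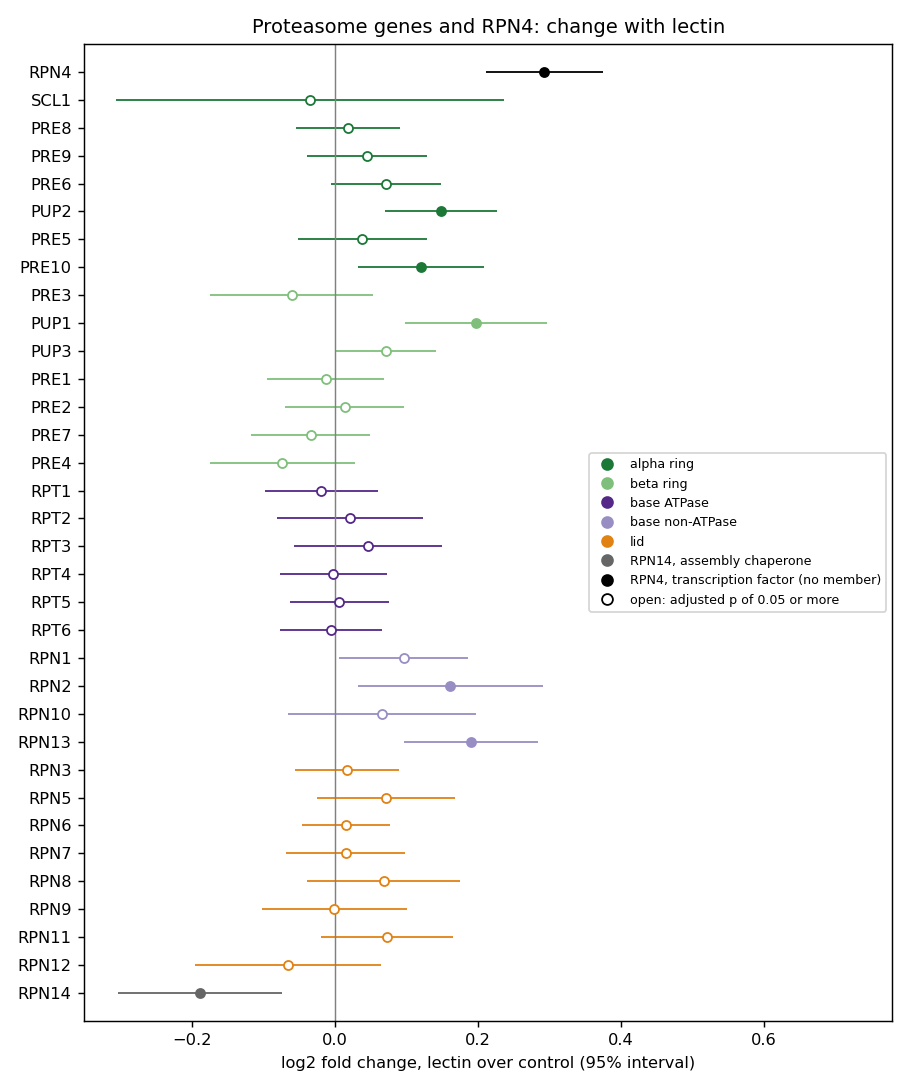
Log2 fold change, lectin over control, of RPN4 and the 33 proteasome genes on the x axis, with bars for the 95% interval of DESeq2, filled points for an adjusted p under 0.05 and colours for the parts of the proteasome. RPN4 lies farthest to the right, RPN14 is the only filled point left of 0, and SCL1 has the widest interval.

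How far the data limit the change of the 27 other genes can be read from the intervals. Their estimates ran from a change of -4.93% in PRE4 to 6.94% in RPN1 (DESeq2). Without lectin 5 the lower end moved, with log2 fold changes of -0.12 in PRE4, -0.13 in RPN12 and -0.13 in SCL1, against -0.07, -0.07 and -0.03 with it. Leaving out SCL1, which had the widest interval at -19.1% to 17.8%, the 95% bounds of the other 26 lay between -12.7% (RPN12) and 14.7% (RPN10). Changes beyond these outer bounds lie outside the intervals of all 26 genes. Each single gene has a narrower interval, such as -4.26% to 5.42% in RPT5. Those of RPN1 (0.45% to 13.9%) and PUP3 (0.16% to 10.3%) held no decrease. A test that was not passed does not show that the groups were alike.

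RPN4, the gene of the factor that drives them, rose more than any of the 33. It had 12109, 13503 and 13981 normalized counts as the lowest, median and highest lectin sample, against 10485, 10731 and 11477 in the control samples. Each lectin sample lay above each control sample. The mean was 13306 ± 705 in lectin samples and 10860 ± 347 in control samples (SD, n = 6 each), a log2 fold change of 0.29 ± 0.042 (SE), or 22.5% with a 95% interval of 15.8% to 29.6% (adjusted p = 7.3e-11 in DESeq2, 0.000145 in edgeR). RPN4 (YDL020C, chrIV:415113-416708) has neither an exact element nor a match with 1 substitution in its own promoter window.

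Core particle genes were called in 3 of 14 cases, all higher (21.4%), with a median log2 fold change of 0.03. Regulatory particle genes were called in 2 of 18 cases, both higher (11.1%), with a median of 0.02. Among all tested genes 31.5% were called. Without lectin 5 each particle had 4 calls, 1 of them lower in each (PRE4 in the core and RPN12 in the lid). The core median was then 0.01. That fit also called more of all genes, 2419 of the 6237 tested, against 1965 with all samples. edgeR called 2 core genes and 1 regulatory gene. The counts of calls are small and the medians nearly equal, and no test of the difference between the particles was made, because the genes were chosen as a group. Within the core, 6 of the 7 alpha ring genes had an estimate above 0 and 2 of them passed, while 3 of the 7 beta ring genes had an estimate above 0 and 1 passed. Within the regulatory particle, the 6 ATPase genes and the 8 lid genes gave no call, and the calls were 2 of the 4 other base genes, which all had an estimate above 0. This placement depended on single samples, since the lid gene RPN12 passed without lectin 5 and the lid gene RPN11 without lectin 2.

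In the alpha ring, whose subunits gate the barrel, PUP2 and PRE10 rose. PUP2 (YGR253C, chrVII:998358-999140), the gene of subunit alpha5, had a lowest, median and highest value of 6221, 6598 and 6952 normalized counts in lectin samples and 5564, 5945 and 6233 in control samples. In 5 of the 6 lectin samples it was above every control sample. Its mean was 6575 ± 282 with lectin and 5931 ± 221 in control (SD, n = 6 each), a log2 fold change of 0.15 ± 0.040 (SE; adjusted p = 0.0012 in DESeq2, 0.0136 in edgeR). PRE10 (YOR362C, chrXV:1017880-1018746), the gene of alpha7, ran over 6073, 6646 and 6969 normalized counts in lectin samples and 5581, 6015 and 6272 in control samples, with 4 lectin samples above the control range. Its log2 fold change of 0.12 ± 0.045 (SE) had an adjusted p of 0.0266 in DESeq2 and 0.0544 in edgeR. That call was also lost without lectin 3, 4, 6 or 8 or without control 2, 6 or 8, with adjusted p-values up to 0.0846.

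Other alpha ring genes did not pass. PRE6 (alpha4) had 4991, 5372 and 5539 normalized counts as lowest, median and highest in lectin samples, and 4790, 5127 and 5304 in control samples, a log2 fold change of 0.07 (adjusted p = 0.153). PRE8 (alpha2) had the smallest absolute log2 fold change of the ring, 0.02 (adjusted p = 0.741), with 4058 to 4544 normalized counts with lectin and 4079 to 4463 in control. PRE9 (alpha3) and PRE5 (alpha6) lay between, with log2 fold changes of 0.05 and 0.04. SCL1 (alpha1) was the most variable gene of all 33. It ran from 5049 over a median of 5152 to 7626 normalized counts in lectin samples, where lectin 5 was highest, and from 4726 over 5683 to 7009 in control samples, where control 6 and 7 were highest. Its spread was 18.2% of the mean in lectin samples and 16.5% in control samples, where the medians over the 33 genes were 5.38% in lectin and 3.98% in control samples. The groups overlapped (log2 fold change -0.03 ± 0.14, SE; adjusted p = 0.881). Without lectin 5 the value was -0.13 (adjusted p = 0.271).

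In the beta ring, PUP1 (YOR157C, chrXV:630966-631751) rose. It encodes beta2, the subunit with the trypsin-like cutting site. Its lowest, median and highest normalized counts were 4435, 4858 and 5179 in lectin samples and 3787, 4228 and 4490 in control samples, with 5 lectin samples above every control sample. The mean was 4814 ± 288 with lectin and 4197 ± 227 in control (SD, n = 6 each), a log2 fold change of 0.20 ± 0.051 (SE), or 14.7% with a 95% interval of 7.1% to 22.9% (adjusted p = 0.00069 in DESeq2, 0.00634 in edgeR). The genes of the other cutting subunits gave no call: PRE3 (beta1) had a log2 fold change of -0.06 ± 0.058 (SE; adjusted p = 0.459), or -0.10 without lectin 5 (adjusted p = 0.107), and PRE2 (beta5) one of 0.01 ± 0.042 (SE; adjusted p = 0.834). PUP1 was thus called and PRE2 and PRE3 were not, and the difference between them was not tested.

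The remaining beta genes were split in sign. PUP3 (beta3) had 7895, 8605 and 8964 normalized counts in lectin samples and 7894, 8068 and 8402 in control samples, with 5 lectin samples above the control range. Its log2 fold change was 0.07 ± 0.035 (SE; adjusted p = 0.109). PRE4 (beta7) ran the other way, over 4506, 4932 and 5724 in lectin samples and 5051, 5224 and 5510 in control samples. In 5 lectin samples it was below every control sample and in lectin 5 above them all, with a log2 fold change of -0.07 ± 0.052 (SE; adjusted p = 0.291). Without lectin 5 that value was -0.12 and passed (adjusted p = 0.0102). PRE1 (beta4) had 3289 to 3580 normalized counts with lectin and 3278 to 3680 in control (adjusted p = 0.853), and PRE7 (beta6) a log2 fold change of -0.03 (adjusted p = 0.59), or -0.06 without lectin 5 (adjusted p = 0.177).

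**Figure D2:**
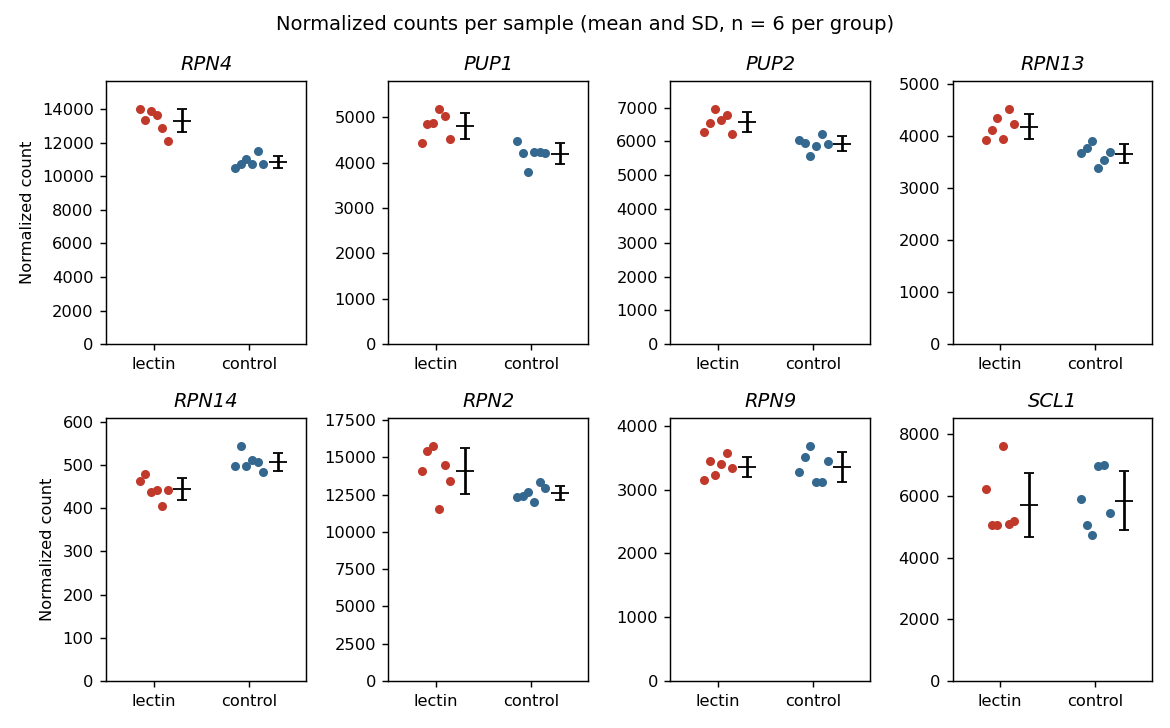
Normalized counts of 8 genes in each of the 6 lectin (red) and 6 control (blue) samples, with the mean and SD beside the points and the y axis starting at 0. RPN4 and RPN13 have every lectin sample above every control sample, RPN14 has every one below, RPN9 shows no shift, and lectin 5 is the lowest point of RPN2 and the highest of SCL1.

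In the base, RPN13 and RPN2 rose. RPN13 (YLR421C, chrXII:965090-965560), whose product is a ubiquitin receptor, had 3914, 4176 and 4513 normalized counts as lowest, median and highest in lectin samples and 3382, 3688 and 3898 in control samples. Each lectin sample lay above each control sample, which held in that direction for 5.85% of all genes. The mean was 4178 ± 235 with lectin and 3661 ± 179 in control (SD, n = 6 each), a log2 fold change of 0.19 ± 0.048 (SE), or 14.1% with a 95% interval of 6.92% to 21.8% (adjusted p = 0.00056 in DESeq2, 0.00558 in edgeR). Leaving out any single sample kept the call, with adjusted p-values up to 0.00338.

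RPN2 (YIL075C, chrIX:217863-220700), whose large scaffold protein anchors Rpn13, had 11504, 14269 and 15769 normalized counts in lectin samples and 11981, 12524 and 13381 in control samples. In 5 lectin samples it was above every control sample, and in lectin 5 below them all. The log2 fold change of 0.16 ± 0.066 (SE) had an adjusted p of 0.0464 in DESeq2 and 0.0676 in edgeR. Without lectin 5 it was 0.21 (adjusted p = 6.2e-05), and it kept its call also without lectin 8 or control 7, but lost it without any of the other 9 samples, with adjusted p-values up to 0.135. RPN1, the other large scaffold, had the same pattern: 10240, 11625 and 12536 normalized counts in lectin samples and 10454, 10834 and 11097 in control samples, with lectin 5 lowest. Its log2 fold change was 0.10 ± 0.046 (SE; adjusted p = 0.0945), and without lectin 5 it was 0.13 and passed (adjusted p = 0.00158). RPN10, the gene of another ubiquitin receptor, gave 0.07 ± 0.067 (SE; adjusted p = 0.478), with lectin 5 highest at 4433 and the other lectin samples at 3275 to 4024, and 0.02 without lectin 5 (adjusted p = 0.816).

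The ATPase genes RPT1 to RPT6, which encode the ring that unfolds substrates, stayed close to 0, with log2 fold changes from -0.02 (RPT1) to 0.05 (RPT3, or 0.01 without lectin 5) and no adjusted p under 0.05. RPT4, the closest of them, had 4235, 4498 and 4773 normalized counts as lowest, median and highest in lectin samples and 4431, 4520 and 4609 in control samples. The lectin samples spread on both sides of the control range, 2 above and 3 below it. Its log2 fold change was -0.0017 ± 0.038 (SE; adjusted p = 0.982), a change of -0.117% with a 95% interval of -5.16% to 5.19%.

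None of the 8 lid genes passed, with log2 fold changes from -0.07 (RPN12) to 0.07 (RPN11). At an unadjusted p under 0.05 (DESeq2) there were also 0 of 8, and edgeR called 0. Among all 6237 tested genes 31.5% passed, 2544 had an unadjusted p under 0.05, and edgeR called 29.1%. RPN11, the gene of the enzyme that cuts ubiquitin from the substrate, had 4379, 4923 and 5287 normalized counts in lectin samples and 4456, 4631 and 4986 in control samples (log2 fold change 0.07 ± 0.047, SE; adjusted p = 0.234), and without lectin 2 it passed at 0.10 (adjusted p = 0.0371). RPN5 and RPN8, for structural lid subunits, both gave 0.07 with adjusted p-values of 0.27 and 0.356. RPN3, RPN6 and RPN7, also for structural lid subunits, each gave 0.02. RPN9 was the least changed gene of all, with 3146, 3370 and 3576 normalized counts in lectin samples and 3113, 3360 and 3686 in control samples. RPN12, whose subunit joins last in lid assembly, had 2638, 2886 and 3610 normalized counts in lectin samples and 2992, 3074 and 3207 in control samples. Here 5 lectin samples were below every control sample and lectin 5 above them all, and without lectin 5 the log2 fold change was -0.13 (adjusted p = 0.00612), against -0.07 (adjusted p = 0.482) with it.

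RPN14 (YGL004C, chrVII:490703-491956) fell. It encodes a chaperone that helps to place the ATPase Rpt6 during assembly and is not part of the finished particle, and it was the least abundant of the 33. It had 405, 443 and 481 normalized counts as lowest, median and highest in lectin samples and 483, 503 and 544 in control samples. Each lectin sample lay below each control sample, as in 6.72% of all genes. The mean was 445 ± 25.8 with lectin and 507 ± 20.9 in control (SD, n = 6 each), a log2 fold change of -0.19 ± 0.059 (SE), or -12.2% with a 95% interval of -19.0% to -4.99% (adjusted p = 0.00636 in DESeq2, 0.0117 in edgeR).

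**Figure D3:**
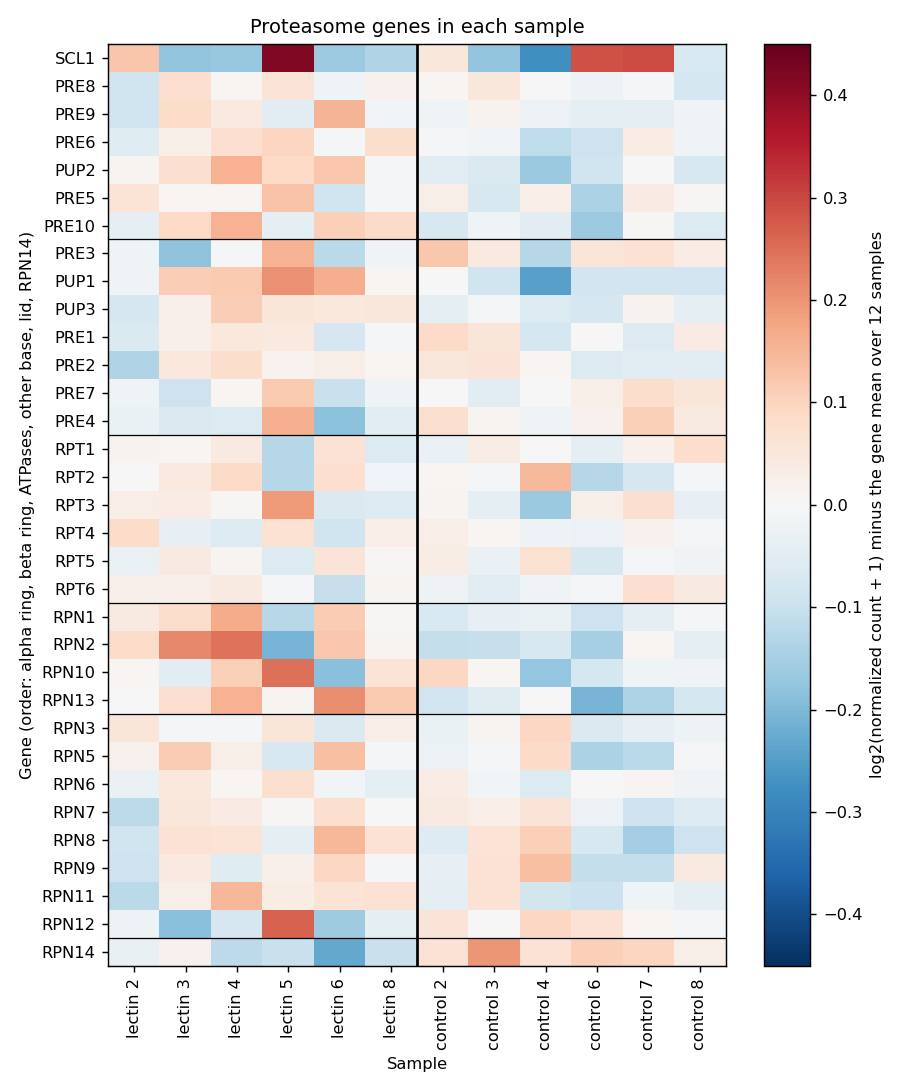
Each cell gives log2(normalized count + 1) of 1 of the 33 genes (rows, by part of the proteasome) in 1 sample (columns, lectin left of the line and control right), minus the gene's mean over the 12 samples. Lectin 5 differs from the other lectin samples in both directions, high in SCL1, RPN10 and RPN12 and low in RPN1 and RPN2, and RPN14 is lower in lectin samples.

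Across samples the genes moved together only in part. Of the 33, 25 lay above their own mean over the 12 samples in lectin 3 and in lectin 4. In control 6 that number was 8 and in control 8 it was 9, with 11 to 22 in the other samples. Lectin 5 was the highest of the 12 samples in 11 genes (SCL1, PRE6, PRE5, PRE3, PUP1, PRE7, PRE4, RPT3, RPN10, RPN6 and RPN12) and the lowest in 4 (RPT1, RPT2, RPN1 and RPN2). Control 4 was the lowest in 7 and the highest in 4, and control 6 the lowest in 7. The spread between samples, as a share of the mean, was larger in the lectin than in the control group for 26 of the 33 genes. The same count over all tested genes was not made, so this cannot be read as particular to these genes. Together the 33 genes held 0.974% to 1.03% of the counts in lectin samples and 0.935% to 0.996% in control samples, with means of 1.005% ± 0.021 in lectin and 0.973% ± 0.022 in control samples (SD, n = 6 each), and the groups overlapped.

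The balance between the particles, core against regulatory, was read in each sample as the mean log2(normalized count + 1) of the 14 core genes minus that of the 18 regulatory genes. It was -0.09, -0.10, -0.08, 0.02, -0.10 and -0.08 in lectin 2, 3, 4, 5, 6 and 8, and -0.04, -0.08, -0.16, -0.03, -0.0086 and -0.08 in control 2, 3, 4, 6, 7 and 8. Lectin 5 was the highest of all samples and control 4 the lowest, and the groups overlapped. The mean difference, lectin minus control, was -0.0054, against SDs of 0.048 in lectin and 0.054 in control samples (n = 6 each), and -0.02 without lectin 5. The core mean was 12.37 ± 0.048 in lectin and 12.33 ± 0.038 in control samples, and the regulatory mean 12.44 ± 0.021 in lectin and 12.40 ± 0.027 in control samples (SD, n = 6 each; not tested).

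Core and regulatory genes differ in length, and the libraries differed in how short and long genes fared. The core genes have coding lengths of 597 to 867 bases, and 12 of the 18 regulatory genes are of at least 1200. Among genes outside the proteasome, 796 of 597 to 867 bases were compared with 2923 of at least 1200 bases, as the mean deviation from each gene's own mean. That difference was 0.11 log2 units in lectin 5 and -0.07 to 0.0007 in the other lectin samples, and -0.01 to 0.05 in control samples. Lectin 5 was thus the highest sample in both measures, while the lowest sample differed. Control 4, the lowest in the balance, was at -0.0058 in the difference by length. Lectin 2, the lowest by length at -0.07, was at -0.09 in the balance. The part of gene length in the balance between the particles, or in the calls made without lectin 5, was not tested.

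**Figure D4:**
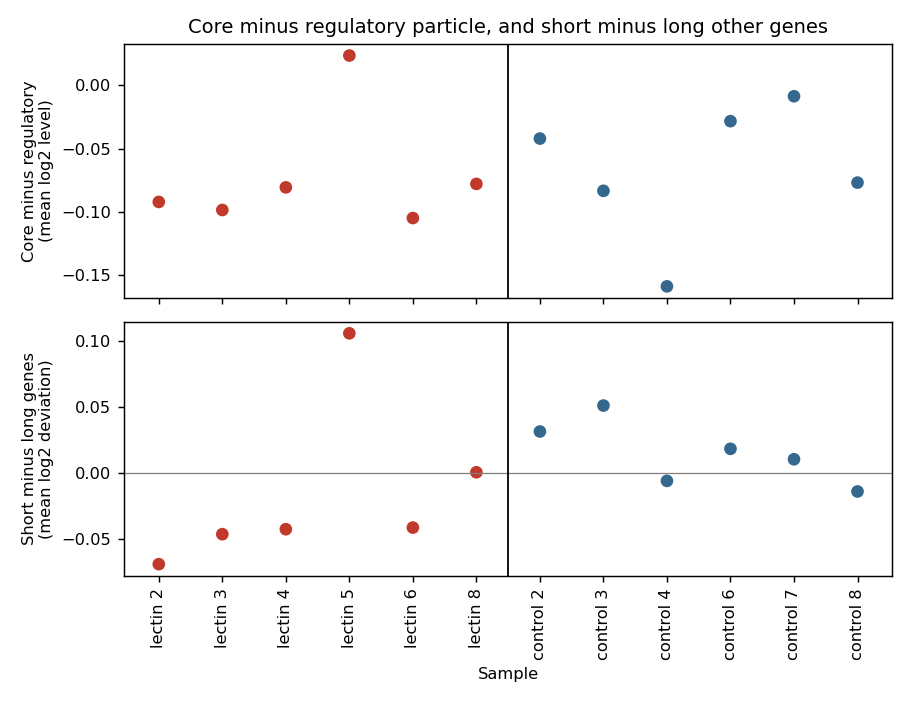
Upper panel, mean log2 level of the core genes minus that of the regulatory genes in each sample; lower panel, mean log2 deviation of short minus long genes outside the proteasome, with lectin samples in red and control samples in blue. Lectin 5 is the highest sample in both panels, at 0.02 and 0.11, and the lowest is control 4 in the upper and lectin 2 in the lower panel.

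Levels between genes were compared as normalized counts per kb of coding length, which leaves out untranslated ends and so favours short genes. In the alpha ring the 7 genes lay within 1.46-fold of each other in lectin samples and 1.35-fold in control samples. Their medians were 7482 with lectin and 7025 in control. In the beta ring PUP3 stood above the others at 13795 ± 571 per kb with lectin and 13125 ± 313 in control (SD, n = 6 each), against 5731 to 7633 with lectin and 5340 to 7556 in control for the other 6. The 6 ATPase genes ran from 3432 (RPT4) to 5062 (RPT1) per kb with lectin and from 3436 to 5126 in control. The lid genes ran from 2840 to 5650 per kb with lectin and from 2840 to 5429 in control, with RPN9 lowest. RPN13, the shortest gene of the set, was the highest of the regulatory particle at 8870 ± 499 with lectin and 7772 ± 379 in control, and RPN14 was below all others at 355 ± 20.5 with lectin and 404 ± 16.7 in control (SD, n = 6 each).

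**Figure D5:**
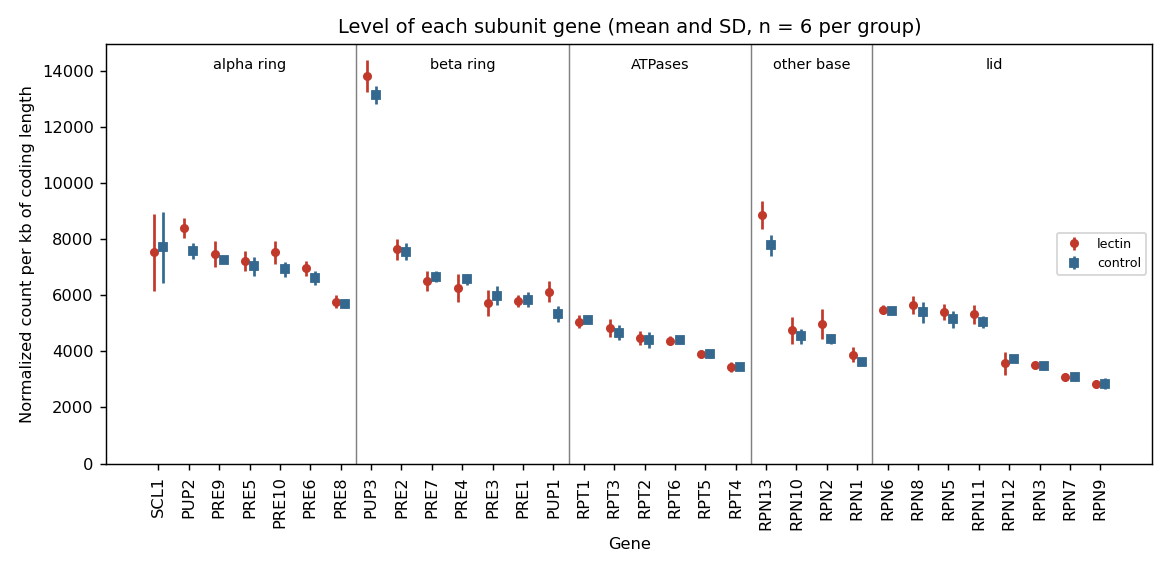
Normalized counts per kb of coding length of the 32 subunit genes, grouped by part of the proteasome, as mean and SD over 6 lectin (red circles) and 6 control (blue squares) samples. PUP3 and RPN13 stand above the other genes of their parts in both groups, and genes are ordered within each part by their control level.

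The other genes of the pathway were taken from 4 lists. Of 7 regulators of the proteasome genes, 4 rose and 3 did not pass: RPN4 (above), HSF1, MUB1 and PDR1. HSF1, the heat shock factor, had a log2 fold change of 0.27 ± 0.053 (SE; adjusted p = 7.1e-06), MUB1, whose product works with the ligase Ubr2 in breaking down Rpn4, one of 0.23 ± 0.052 (SE; adjusted p = 0.00015), and PDR1, the drug resistance factor, one of 0.12 ± 0.038 (SE; adjusted p = 0.0107). HSF1 and PDR1, like RPN4, had each lectin sample above each control sample, which held in that direction for 5.85% of all genes. The share called was 57.1% of 7 genes, where 31.5% of all genes passed.

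Of 15 assembly and associated factors, 2 rose and 13 did not pass (13.3% called, against 31.5% of all genes). UMP1, the chaperone enclosed in the maturing core, had 5664, 6197 and 6634 normalized counts as lowest, median and highest in lectin samples and 5088, 5416 and 5952 in control samples, with 3 lectin samples above the control range. Its log2 fold change was 0.18 ± 0.053 (SE; adjusted p = 0.0045). FUB1, which encodes a proteasome-binding protein, gave 0.18 ± 0.072 (SE; adjusted p = 0.0371). SEM1, a lid subunit whose standard name keeps it outside the rule, gave 0.15 ± 0.074 (SE; adjusted p = 0.103).

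Of 33 genes for ubiquitin and its activation, conjugation and ligation, 2 were higher and 5 lower (21.2% called, against 31.5% of all genes), and edgeR called 2 higher and 3 lower. UBC8, the gene of a conjugating enzyme, rose by 0.20 ± 0.051 (SE; adjusted p = 0.00051), and CDC4, an F-box subunit gene, by 0.18 ± 0.056 (SE; adjusted p = 0.0077) on the log2 scale. RPS31, which encodes ubiquitin fused to a ribosomal protein, had a log2 fold change of -0.20 ± 0.042 (SE; adjusted p = 2.3e-05), with each lectin sample below each control sample. Reads of its ubiquitin part can be hard to assign, since other ubiquitin genes share that sequence. HRD1, a ligase of the endoplasmic reticulum, had one of -0.12 ± 0.040 (SE; adjusted p = 0.0098). Of 20 genes for receptors, shuttles, Cdc48 partners, deubiquitinases and their recruitment, 3 were higher and 1 lower (20% called, against the same 31.5%). OTU1, a deubiquitinase gene, rose by 0.34 ± 0.062 (SE; adjusted p = 5.6e-07), UBP10, another, by 0.17 ± 0.047 (SE; adjusted p = 0.0016), and RAD23, whose product carries ubiquitinated proteins to the proteasome, by 0.16 ± 0.043 (SE; adjusted p = 0.0011) on the log2 scale. BRO1, which recruits the deubiquitinase Doa4 to endosomes, had a log2 fold change of -0.25 ± 0.063 (SE; adjusted p = 0.00068). All p-values in these lists are from DESeq2.

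The promoter element and the calls were set side by side, as a description. Among the 27 genes with an exact element, 3 were called (PUP2, PRE10 and RPN2), and among the 6 without one, 3 were called (PUP1, RPN13 and RPN14), where 31.5% of all genes passed. The calls of PRE10 and RPN2 were lost in edgeR and without single samples, as given above. The median log2 fold change was 0.02 with the exact element and 0.07 without it. Of the 6 genes without it, PUP1, RPN13, PRE5, RPN8 and RPN10 held a match with 1 substitution, and only RPN14 held neither.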

How the data were processed

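Strand-specific, poly-A selected libraries of 6 lectin and 6 control samples had been sequenced in paired-end reads, per the series' design text. The deposited values are raw counts per gene, and fastp, HISAT2, featureCounts and the build R64 are named in the submitters' processing notes. Versions, the strand setting and the treatment of multi-mapping reads are not given in the sources used here. The counts of overlapping or repeated genes depend on these settings. Identifiers were matched to RefSeq (6047 of 7192).

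A gene was tested where 6 or more samples reached 10 counts (6237 genes; all 33 members passed). DESeq2's Wald test (1.42.0, R 4.3.3) was used for lectin against control, the tool being named in the series' design text, with Benjamini-Hochberg adjustment over all tested genes and unshrunken log2 fold changes. edgeR's quasi-likelihood test (4.0.16) stands beside it. Intervals are 95% Wald intervals. Any pair of samples within a group differed by more than sampling noise (chi-square per degree of freedom 6.66 to 57.6 over 30 pairs).

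The members, gene lists and tests were chosen with earlier results of these data known. Members given in detail were, per alpha ring, beta ring, base and lid, the 3 with the smallest adjusted p and the 1 with the smallest absolute log2 fold change; of each related list, RPN4, UMP1, SEM1 and up to 4 called genes with the largest change. RPN14, SCL1, RPN12, RPN10, PRE2, PRE3, PRE7 and the range of the ATPase genes were added after their values were seen. Alternatives covered the tool, scaling, filters, the replicate number as a block and leaving out each sample.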

Additional observations from a re-analysis of the deposited data

Results flagged for a closer look

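Each of 33 members, RPN4 and 4 summed measures was looked at in each group for a single sample standing apart from the other 5. In 5 of these 76 groups of 6 values the outermost sample was further from its neighbour, relative to the range, than Dixon's 95% critical value allows. Chance flags about 1 in 20, or 3.8 of 76. All 5 were lectin samples, and lectin 5 had 3 of them. RPT3 had 6958 normalized counts in lectin 5, the other lectin samples having 5824 to 6241. RPN12 had 3610 normalized counts in lectin 5, the others 2638 to 2953. The mean log2 level of the core minus that of the regulatory genes was 0.0236 in lectin 5 and -0.10 to -0.08 in the others. PRE2 had 5971 normalized counts in lectin 2, the others 6596 to 6925. RPT6 had 4965 normalized counts in lectin 6, the others 5304 to 5492.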

How the results depend on the processing

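Small effects set the limit: for each gene not called, a change of a few percent, up or down, lies within its interval in at least 1 direction. The intervals of PUP1, PUP2, RPN13 and RPN14 lay farther from 0, ending nearest to it at 5.05% in PUP2 and -4.99% in RPN14. TMM scaling and no filter on low counts kept the direction and call of each of the 33 members and RPN4. The median log2 fold change of all genes stayed between -0.0005 and 0.0031 under the settings tried. The cause of the moves below was not tested. edgeR, and total counts as size factors, each called 3 members higher, 1 of them regulatory, and lost PRE10 and RPN2. With total counts 1848 of all tested genes were called. A mean of at least 50 counts turned the sign of RPN9 (0.00046). A further limit of 1 on the absolute log2 fold change left 0 members called, of 6 at the adjusted p alone. At an unadjusted p under 0.05 (DESeq2) there were 8 members, where 2544 of all 6237 tested genes passed. edgeR called 4 members, where it called 29.1% of all genes.

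Same-numbered samples of the groups did not deviate together (mean correlation over 5 pairs -0.0278, from -0.122 to 0.186), and the labels do not say that the numbers pair them, so no pairing was assumed. The number was also taken as a replicate block in the 10 samples whose number occurs in both groups. That leaves out lectin 5 and control 7. With the block 6 members were called higher and 0 lower, and 1730 of the 6237 tested genes were called. RPN14 lost its call at an adjusted p of 0.0906 (-0.19), and RPT6 (0.0112), RPN7 (-0.0010) and RPT1 (0.0062) changed sign. RPN1 gained a call, as it also did when lectin 5 alone was left out. Without the block, these 10 samples gave 6 higher and 3 lower, with 4 regulatory calls, and RPT6 (0.0117), RPN7 (-0.00040) and RPT1 (0.0062) changed sign. That fit called 2342 of the 6237 tested genes.

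With each sample left out in turn, 1646 to 2419 genes and 4 to 9 members were called, 3 to 6 higher and 1 to 3 lower, with 2 to 4 core and 1 to 4 regulatory calls. The 2419 genes, the 9 members and the 3 lower ones came without lectin 5, where RPN1, PRE4 and RPN12 gained a call. PUP3 and RPN11 gained one without lectin 2. PUP1, PUP2, RPN13 and RPN14 kept theirs in all 12 fits, and RPN4 stayed at 0.28 to 0.32. Signs turned in RPT2 (-0.0020 to 0.0548), RPN9 (-0.0215 to 0.0284), RPT5 (-0.0073 to 0.0215), RPT4 (-0.0178 to 0.0155), RPT6 (-0.0156 to 0.0145), SCL1 (-0.134 to 0.0243), RPN7 (-0.00069 to 0.0402), RPT1 (-0.0343 to 0.0044) and PRE1 (-0.0299 to 0.0031) on the log2 scale, SCL1 reaching its lowest value without lectin 5. The core minus regulatory difference ran from -0.0244 to 0.0061. With 1 mismatch allowed, 32 of the 33 promoters held the element (97.0%; all genes 7.57%). The exact element was in 27 promoters also when only the bases before the start were searched.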

Other observations

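The promoter element is not particular to proteasome genes, and other genes that carry it were looked at after the values were seen. Besides the members, 45 genes had an exact match in the same window. In 7 of them the match is a site that also lies in a member's window, and of these 0 were higher and 1 lower (GCD1, a translation factor gene). Of the 38 others, 37 were tested: 12 were higher and 6 lower, 48.6% of them, where 31.5% of all genes passed, with a median log2 fold change of 0.07. The largest increases among them were in DEF1, a gene for degrading stalled RNA polymerase II, at 0.87 ± 0.099 (SE; adjusted p = 1.2e-16 in DESeq2), and in BDF2, a bromodomain protein gene, at 0.43 ± 0.071 (SE; adjusted p = 5.3e-08). SGT2, a co-chaperone gene, was at 0.27 ± 0.036 (SE; adjusted p = 7.7e-12). DEF1 averaged 10492 ± 1847 normalized counts with lectin and 5731 ± 482 in control (SD, n = 6 each), BDF2 7379 ± 711 with lectin and 5495 ± 472 in control, and SGT2 13140 ± 420 with lectin and 10911 ± 431 in control. In all 3 each lectin sample lay above each control sample, which held in that direction for 5.85% of all genes. HUA1, whose log2 fold change lay between those of SGT2 and BDF2, is not described. The 6 lower genes were TED1, REB1, PRD1, ATG14, GSF2 and UBI4. UBI4 did not pass in edgeR (adjusted p = 0.139). The limit on assigning reads of shared ubiquitin sequence, given for RPS31, applies to UBI4 too. Some of the 38 share a site with each other, as GSF2 and RSE1 do, so their sites are fewer than the genes. YAP1, ECM29, UBA1, UBI4, CDC48 and CUZ1 are also in the pathway lists above. Whether the other genes with the element differ from the members as a group was not tested.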
